A study of Mus musculus with 16 samples.

Results

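The comparison described here sets cardiomyocytes that received both a PRODH virus and pressure overload against cardiomyocytes that received neither. Of the 16 RNA-seq libraries of the study, 8 belong to it, chosen by their labels alone: 4 from mice given AAV9-PRODH and transverse aortic constriction (PRODH TAC) and 4 from mice given AAV9-Vector and a sham operation (vector sham). The other 8 libraries, 4 of PRODH sham and 4 of vector TAC, are used to place these values. All mice were wild type C57BL/6. Each received an adeno-associated virus of serotype 9, a gene carrier with a high affinity for heart muscle, and surgery 3 weeks later. The heart was collected 4 weeks after surgery, and RNA was taken from isolated adult cardiomyocytes. The design text describes the overexpression as cardiac-specific. The sources used here do not give the promoter of the virus, the sex of the mice or their age beyond adult. Virus and surgery change together between the 2 groups, so their parts cannot be told apart within this contrast. As the labels do not tie each library to an animal of its own, the p-values here reflect spread among libraries, and that spread may be technical.

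Transverse aortic constriction narrows the aortic arch and makes the left ventricle pump against a raised pressure. Heart muscle under such a load is known to raise fetal and wall stress genes such as the natriuretic peptides and the slow myosin Myh7, to lower genes of fatty acid oxidation and calcium reuptake, and to gain interstitial collagen from activated fibroblasts. PRODH, proline dehydrogenase, sits on the inner mitochondrial membrane, takes the first step of proline oxidation and passes electrons to the respiratory chain. The next enzyme, encoded by Aldh4a1, turns its product into glutamate. Interferons are signals of antiviral defence: through STAT and IRF transcription factors they induce a shared set of genes, among them the Ifit, Oas and Mx families.

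Total estimated counts per library were 15987580 to 22680212. Genes of the mitochondrial genome took 37.88% to 40.92% of the counts in vector sham and 34.86% to 36.55% in PRODH TAC. No library pair of a group held the same counts. The first principal component of the 8 libraries held 53.2% of the variance and separated the 2 groups without overlap. Defining cardiomyocyte markers were abundant in every library: 12 of them summed to 40621 to 45333 normalised counts (CPM, scaled by the TMM factors of edgeR) in vector sham and 31822 to 35713 in PRODH TAC. The scaling carries weight here, since TMM factors were 0.848 to 0.911 in vector sham and 1.12 to 1.1957 in PRODH TAC. The median log2 fold change of all genes was 0.018 with TMM and 0.42 when libraries were scaled by their totals alone, so every rise or fall below is relative to the bulk of genes.

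Prodh, the gene named in the virus labels, was measured at 10.9, 11.1, 10.4 and 11.5 CPM in vector sham and at 13.4, 12.3, 14.7 and 14.2 CPM in PRODH TAC. The groups did not overlap, and the difference was small (log2 fold change 0.31 ± 0.098 (SE), 95% interval 0.11 to 0.51, adjusted p = 0.0106). PRODH sham libraries held 12.6 to 14.8 CPM and vector TAC libraries 6.19 to 8.38 CPM. Prodh in PRODH sham narrowly missed the threshold against vector sham (log2 fold change 0.33 ± 0.10, adjusted p = 0.0517), though these libraries did not overlap. Against PRODH sham, Prodh in PRODH TAC did not pass the test (log2 fold change -0.019 ± 0.096, adjusted p = 0.904), and against vector TAC it was higher (log2 fold change 0.90 ± 0.10, adjusted p = 2.19e-08). A viral transcript is seen here only as far as its reads were counted for the mouse gene, and the sources used here do not say whether the virus carries the mouse sequence.

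Across 14066 genes that passed the filter on low counts, 6075 (43.2%) differed between PRODH TAC and vector sham at an adjusted p under 0.05 (quasi-likelihood test of edgeR, Benjamini-Hochberg adjusted). Of these, 3092 (22.0% of genes tested) were higher and 2983 (21.2%) lower. Each count of list members called higher or lower below is to be read against these shares. The large changes lay on one side: 705 genes (5.01%) were at least 2-fold higher and 139 (0.988%) at least 2-fold lower. Scaled by library size alone, the calls split into 8155 higher and 410 lower, or 95.21% higher in place of 50.9%, with 1812 and 41 past 2-fold. For comparison in the same fit, vector TAC differed from vector sham at 7949 genes (56.5%), with 1763 at least 2-fold higher (12.5%), and PRODH sham at 704 genes (5.0%). These comparisons share the vector sham libraries. In 343 genes (2.44%) all 4 PRODH TAC libraries lay above every one of the other 12 libraries, and in 391 genes (2.78%) they lay below.

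Fold changes also moved with the length of the gene model. The median log2 fold change was -0.43 for models of up to 500 bases, -0.16 for 1000 to 2000 bases, 0.071 for 3000 to 4000 bases and 0.26 above 6000 bases. In vector TAC against vector sham the same medians ran from -0.25 to 0.13, and in PRODH sham against vector sham from -0.043 to 0.016. With a smooth length term removed from each library, an alternative added after seeing the data, 5340 genes were called (2589 higher and 2751 lower), and 4437 of the 6075 calls were kept in the same direction while 2 turned. Counts under this alternative are given below for part of the lists, and the plot of gene lists shows its median for each.

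**Figure D1:**
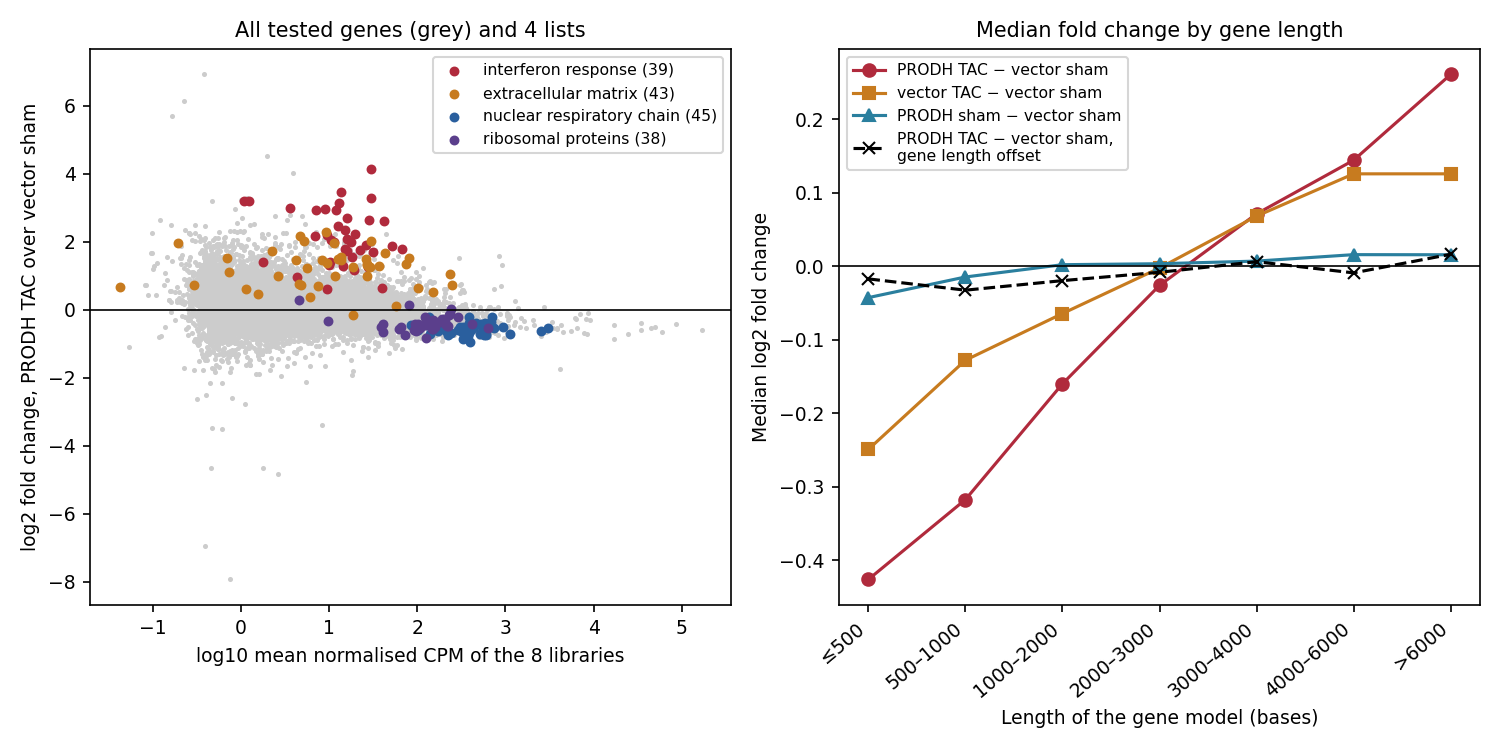
Left, log2 fold change of PRODH TAC over vector sham (y) against the log10 mean CPM of the 8 libraries (x), with 1 point per tested gene and 4 gene lists in colour. Right, median log2 fold change by length of the gene model in bases for 3 comparisons with vector sham and for the length-adjusted fit (dashed). Interferon response genes (red) all lie above 0. The medians by length climb from -0.43 to 0.26 for PRODH TAC and stay between -0.033 and 0.016 in the adjusted fit. Scaled by library size alone, the whole cloud would sit 0.40 higher.

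Genes of the interferon response rose without exception. All 39 measured members of this list were higher in PRODH TAC than in vector sham, against 22.0% of all genes tested, with a median log2 fold change of 2.07 against 0.018 for all genes. Of them, 36 were at least 2-fold higher (5.01% of all genes were). The exceptions were Irf1 (0.60), a transcription factor that interferons induce, Ifi27 (0.65), and Psmb9 (0.96), a subunit of the immunoproteasome. The list stood at 39 of 39 higher under every alternative that was run, scaling by library size alone and the length term included, with medians of 2.00 to 2.47.

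Promoters of 4 members are printed because genes of this list are known to be induced through their promoters, at interferon-stimulated response elements bound by STAT and IRF factors. Each line gives the 250 bases before the RefSeq start on the gene's strand, 5′ to 3′ (build GRCm38.p6), with matches on either strand to GAAA, any 2 bases and GAAA again in capitals. The windows are Ifit1 at chr19:34640639-34640888 (plus strand), Ifit3 at chr19:34583279-34583528 (plus strand), Isg15 at chr4:156200819-156201068 (minus strand) and Ifi44 at chr3:151749911-151750160 (minus strand).
Ifit1: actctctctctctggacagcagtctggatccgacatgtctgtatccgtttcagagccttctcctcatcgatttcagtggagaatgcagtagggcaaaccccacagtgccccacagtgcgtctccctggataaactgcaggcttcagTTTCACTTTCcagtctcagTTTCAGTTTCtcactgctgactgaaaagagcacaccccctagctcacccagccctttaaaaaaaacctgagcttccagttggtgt
Ifit3: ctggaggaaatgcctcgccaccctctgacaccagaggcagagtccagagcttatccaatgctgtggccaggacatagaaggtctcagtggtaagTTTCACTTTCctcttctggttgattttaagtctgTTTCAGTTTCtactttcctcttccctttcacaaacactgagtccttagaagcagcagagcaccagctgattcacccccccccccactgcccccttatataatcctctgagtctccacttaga
Isg15: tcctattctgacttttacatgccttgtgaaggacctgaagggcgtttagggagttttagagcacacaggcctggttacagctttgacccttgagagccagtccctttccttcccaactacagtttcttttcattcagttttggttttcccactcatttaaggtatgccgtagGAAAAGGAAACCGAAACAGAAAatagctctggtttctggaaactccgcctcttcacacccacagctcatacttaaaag
Ifi44: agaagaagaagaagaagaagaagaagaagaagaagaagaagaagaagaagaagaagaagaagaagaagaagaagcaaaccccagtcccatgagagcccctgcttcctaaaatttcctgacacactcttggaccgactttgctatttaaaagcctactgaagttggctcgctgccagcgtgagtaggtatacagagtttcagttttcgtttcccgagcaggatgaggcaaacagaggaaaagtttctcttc
The capitals mark 2 matches in Ifit1, 2 in Ifit3 and 3 overlapping ones in Isg15. Ifi44 held none, which says only that these exact letters are not in this window. RefSeq promoters were found for 31 of the 39 genes, and 15 of these genes had a match. Over all 32851 promoters of this length, 978 (2.98%) held the letters, and of the 37 promoters of list genes 15 (40.5%) did. The list holds genes known for this kind of induction, so its share of matches is not a result of these libraries. A match is a description of the sequence and not evidence of binding.

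Ifit1, which encodes a protein that binds foreign RNA, gave the largest fold change of the list. Vector sham libraries held 3.13, 3.3, 3.32 and 2.75 CPM and PRODH TAC libraries 55.3, 55.8, 58.2 and 53.9 CPM (log2 fold change 4.16 ± 0.12 (SE), 95% interval 3.91 to 4.40, adjusted p = 1.16e-21). Both single conditions lay between, at 13.7 ± 2.22 CPM (SD, n = 4) in PRODH sham and 5.53 ± 0.997 CPM in vector TAC. No PRODH TAC library came near the range of any other group. PRODH TAC exceeded PRODH sham by 2.02 ± 0.098 and vector TAC by 3.32 ± 0.11 on the log2 scale.

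Ifit3, its neighbour in the same antiviral family, also had both single conditions in between, with 6.48, 4.87, 5.13 and 5.5 CPM in vector sham, 18.9 ± 1.25 in PRODH sham, 13.2 ± 1.15 in vector TAC and 58, 54.6, 50.6 and 50.9 in PRODH TAC (log2 fold change 3.29 ± 0.095, adjusted p = 1.16e-21). Fractional counts in all 16 libraries show that Ifit3 shares reads with another gene. Ifit3b is its near copy, so how their counts divide is uncertain. Ifit3b stood at 1.14 to 2.78 CPM in vector sham and 13.5 to 17.3 in PRODH TAC.

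Irf7, the transcription factor that amplifies interferon signalling, was at 10.7, 12.6, 12.6 and 11 CPM in vector sham and 69.9, 75.1, 68.4 and 76.3 CPM in PRODH TAC (log2 fold change 2.62 ± 0.088, adjusted p = 7.24e-20). PRODH sham held 29.5 to 33.8 CPM and vector TAC 12.6 to 16.6 CPM, so the order was vector sham, vector TAC, PRODH sham, PRODH TAC, and the first pair of groups lay close together. Usp18, the protease that removes the ubiquitin-like ISG15 from proteins and dampens the interferon receptor, rose from 1.99, 2.23, 2.72 and 2.06 CPM to 26.3, 25.7, 23.6 and 23.6 CPM (log2 fold change 3.46 ± 0.12, adjusted p = 9.77e-20). Isg15 itself rose from 1.07, 1.88, 1.69 and 1.8 to 13.4, 15.1, 11.3 and 10.5 CPM (log2 fold change 2.94 ± 0.15, adjusted p = 1.96e-15). For both genes the lowest PRODH TAC library exceeded the highest of the other 12.

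Ddx60 and Ifi44 were raised under PRODH with either surgery but did not pass in vector TAC. Most of the list did: vector TAC had 35 of 39 members higher than vector sham and 1 lower (56.5% of all genes differed). PRODH sham had 36 of 39 higher (5.0% of all genes differed). Ddx60, a helicase of the viral RNA sensing pathway, was at 1.98 to 3.44 CPM in vector sham, 5.65 to 8.81 in PRODH sham, 2.04 to 3.27 in vector TAC and 19.4 to 25.4 in PRODH TAC. Its log2 fold change over vector sham was 3.13 ± 0.15 in PRODH TAC, 1.43 ± 0.18 in PRODH sham and 0.050 ± 0.20 in vector TAC (adjusted p = 5.41e-15, 2.38e-06 and 0.848). For Ifi44 the same values were 2.92 ± 0.13, 1.04 ± 0.15 and 0.20 ± 0.16 (adjusted p = 3.7e-17, 1.75e-05 and 0.287). Whether the effect of TAC differed between the viruses for these genes was not tested. Oasl2, Ifit2 and Phf11d also rose, by 2.72, 2.63 and 2.24.

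Over the whole list, 34 of 39 members had all 4 PRODH TAC libraries above the other 12 (2.44% of all genes did). The others were Igtp, Tap1, Irf1, Psmb9 and Ifi27. For Ifi27 the order was different: PRODH sham held 57.1 to 70.02 CPM against 46.8 to 51.4 in PRODH TAC, 30.2 to 33.1 in vector sham and 14.5 to 17.9 in vector TAC. The summed level of the list was 281 to 303 CPM in vector sham, 445 to 467 in vector TAC, 560.2 to 598 in PRODH sham and 1084 to 1180 in PRODH TAC. Among inflammatory mediators, the interferon-induced chemokines rose too: Cxcl9 was at 2.49 to 3.54 CPM in vector sham and 7.27 to 8.72 in PRODH TAC (log2 fold change 1.36 ± 0.14, adjusted p = 6.53e-09), and Cxcl10 at 0.0529 to 0.558 and 1.54 to 1.89 CPM (log2 fold change 2.29 ± 0.32, adjusted p = 1.53e-06).

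**Figure D2:**
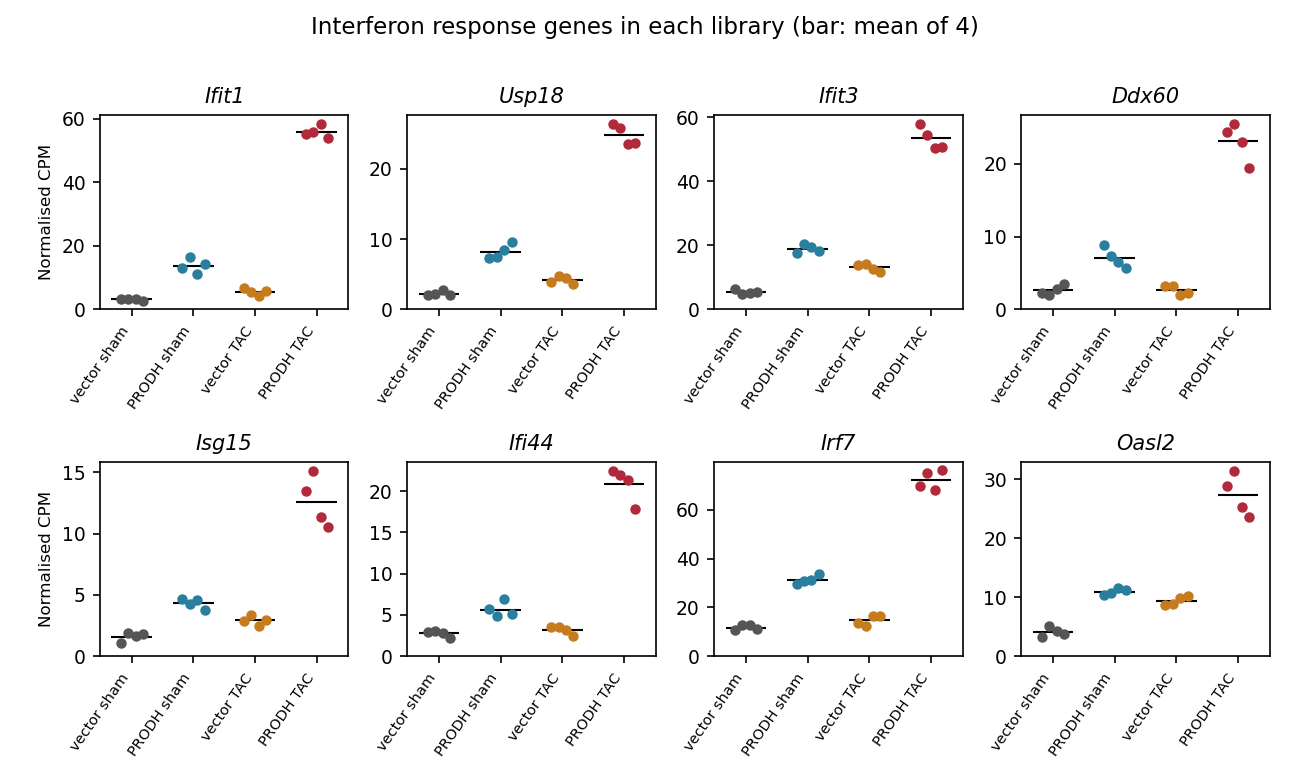
Normalised CPM (y, linear from 0) of 8 interferon response genes in each of the 16 libraries, by group (x). Points are libraries and bars the mean of 4. In all 8 panels the 4 PRODH TAC points lie above every other point, for Ifit1 at 53.9 to 58.2 CPM against at most 16.4 elsewhere.

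Load genes remained above baseline in PRODH TAC, at levels below those of vector TAC. Of 23 tested genes of hypertrophy and wall stress, 14 were higher and 3 lower than in vector sham, with a median log2 fold change of 0.62. Against vector TAC, 22 of the 23 were lower (24.6% of all genes were), with a median of -0.83. Myh7, the slow fetal myosin heavy chain, was at 6.48, 7.41, 8.75 and 8.25 CPM in vector sham and 20.9, 21.8, 23.3 and 22.8 CPM in PRODH TAC (log2 fold change 1.52 ± 0.098 (SE), 95% interval 1.32 to 1.72, adjusted p = 3.11e-13). Vector TAC libraries held 724, 596, 739 and 784 CPM. Its counts were fractional in all 16 libraries, so reads shared with other genes were divided by the counting. Myh6, its neighbour of similar sequence, also had fractional counts in all 16, but the counts do not name the genes that share reads.

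The natriuretic peptides, hormones that the stretched heart releases, showed the same picture on a smaller scale. Nppa was at 164, 159, 157 and 137 CPM in vector sham, 459.6, 422, 429 and 475 in PRODH TAC and 2558, 2571, 3058 and 3119.9 in vector TAC. Nppb was at 147 to 166 CPM, 320.0 to 357 CPM and 690.4 to 788 CPM in the same groups. Neither gene's groups overlapped. Over vector sham, Nppa rose by 1.53 ± 0.087 and Nppb by 1.08 ± 0.074 (adjusted p = 1.56e-14 and 7.76e-13). PRODH sham held 108 to 139 CPM of Nppa, overlapping vector sham, and 103 to 129 CPM of Nppb, below it.

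On the log2 scale Acta1 and Ankrd1 stood nearer to vector TAC than to vector sham (-0.86 and -0.57 against vector TAC). Skeletal actin Acta1 was at 369.9, 477, 424 and 425 CPM in vector sham, 1184, 1193, 1306 and 1424 CPM in PRODH TAC and 2122 to 2638 CPM in vector TAC (log2 fold change 1.59 ± 0.092, adjusted p = 2.94e-14). Ankrd1, a stretch-responsive sarcomere and nuclear protein, was at 475 to 589, 1233 to 1351 and 1707 to 2176 CPM (log2 fold change 1.32 ± 0.081, adjusted p = 9.67e-14). By contrast Ccn2, connective tissue growth factor, was only slightly above baseline, at 26.9 to 29.8 CPM in vector sham and 40.7 to 43.1 in PRODH TAC against 249 to 259.9 in vector TAC (log2 fold change 0.55 ± 0.067, adjusted p = 1.77e-07). The 3 members that fell were Fhl2 (-0.62), Lmcd1 (-0.47) and Csrp3 (-0.41), LIM domain proteins of the sarcomere. Scaled by library size alone, Lmcd1 (adjusted p = 0.492) and Csrp3 (adjusted p = 0.878) were not called, and 19 members were higher and 1 lower. Under the length term 5 fell.

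**Figure D3:**
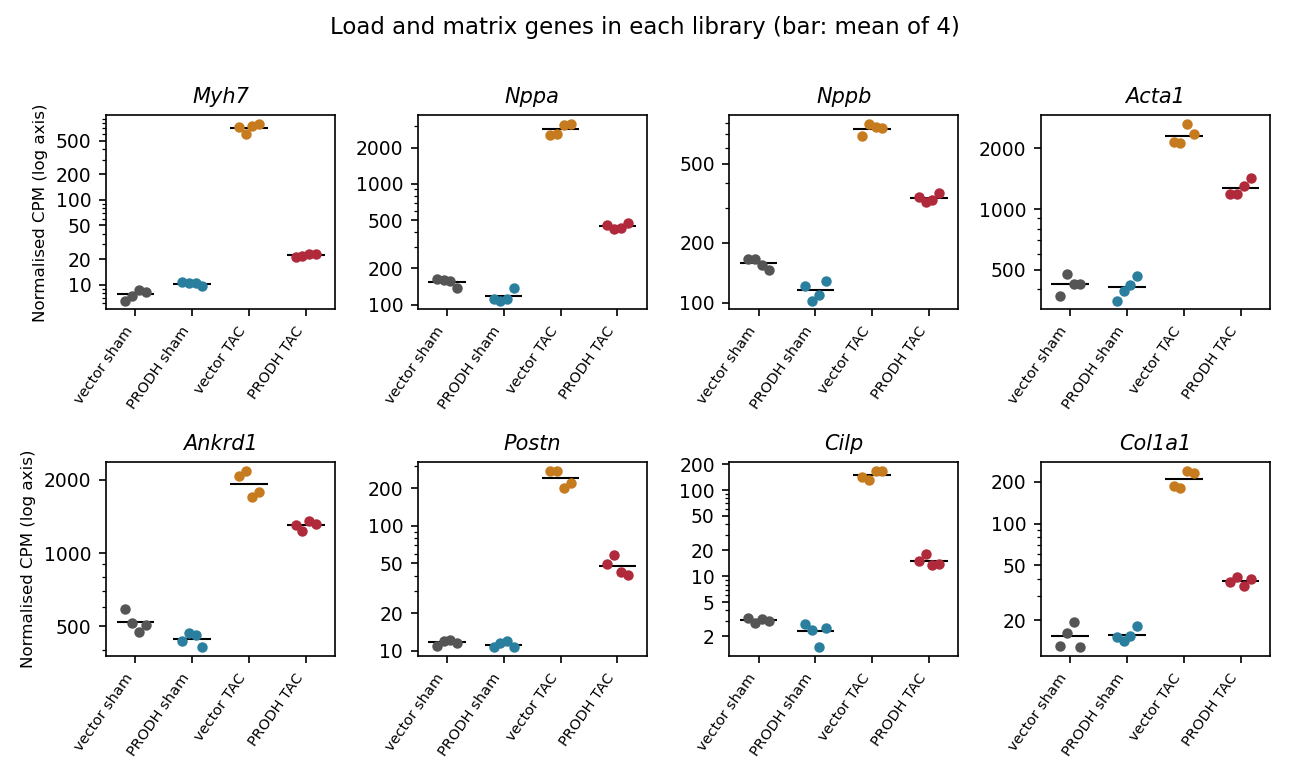
Normalised CPM (y, log axis) of 5 load genes and 3 matrix genes in each library, by group (x), with bars at the mean of 4. PRODH TAC lies between vector sham and vector TAC in every panel: for Myh7 at 20.9 to 23.3 CPM, between 6.48 to 8.75 and 596 to 784.

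Matrix genes rose broadly. Of 43 tested extracellular matrix genes 37 were higher (22.0% of all genes were) and the other 6 did not pass, with a median of 1.27. Of the list, 28 were at least 2-fold higher (5.01% of all genes were). Against vector TAC the list had a median of -1.93. Cilp, which activated fibroblasts secrete, was at 3.27, 2.84, 3.2 and 3.02 CPM in vector sham and 15, 18.2, 13.5 and 13.8 CPM in PRODH TAC (log2 fold change 2.30 ± 0.13, adjusted p = 8.81e-14), and Postn, periostin, at 11, 12, 12.1 and 11.6 and 49.6, 58.3, 42.5 and 40.7 CPM (log2 fold change 2.03 ± 0.12, adjusted p = 5.86e-13). Neither gene's groups overlapped, and the vector TAC libraries held 131 to 166 CPM of Cilp and 200.5 to 276 CPM of Postn.

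The fibrillar collagens moved less than these. Col1a1 was at 13, 16.2, 19.4 and 12.7 CPM in vector sham and 37.7, 41.4, 35.3 and 39.9 CPM in PRODH TAC (log2 fold change 1.33 ± 0.12, adjusted p = 1.03e-08). Col3a1 was at 35.6 to 50.4 and 109 to 138 CPM (log2 fold change 1.54 ± 0.095, adjusted p = 3.69e-13), and the short-chain collagen Col8a1 at 3.25 to 5.98 and 15.4 to 21.2 CPM (log2 fold change 1.97 ± 0.13, adjusted p = 5.86e-13). In vector TAC these 3 genes held 182 to 240.0, 347 to 420.2 and 70.1 to 82.6 CPM. Of 27 genes that process and crosslink matrix, 18 were higher and the others did not pass, with a median of 0.40. Examples are the gelatinase Mmp2 (1.66 ± 0.12), the lysyl oxidase Loxl2 (1.45 ± 0.12) and the procollagen peptidase Adamts2 (1.29 ± 0.12). Comp, which vector TAC held at 27.7 to 40.3 CPM, was at 0.845 to 1.1 CPM in PRODH TAC and 0.356 to 0.558 CPM in vector sham (log2 fold change 1.12 ± 0.30, adjusted p = 0.00373).

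Cardiomyocyte preparations hold some other cells, and their markers moved beside the matrix genes. Of 18 fibroblast markers 15 were higher and 1 lower, with a summed level of 317 to 489.8 CPM in vector sham, 581 to 735 in PRODH TAC, 443 to 481 in PRODH sham and 1759 to 1970.3 in vector TAC. Pdgfra, a receptor that defines cardiac fibroblasts, was at 4.66 to 6.19 CPM in vector sham and 8.19 to 11.9 CPM in PRODH TAC. The part of these cells in the matrix result was not tested. In bulk RNA, a different number of cells of a type and a different amount of RNA per cell cannot be told apart. The marker that fell was Wif1, at 1.22 to 1.9 and 0.563 to 1.28 CPM (log2 fold change -0.82 ± 0.26, adjusted p = 0.0113), a call lost without vector sham library 4 (adjusted p = 0.0716) or PRODH TAC library 1 (adjusted p = 0.0505).

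Markers of vessels and blood-derived cells were read in the same way. Of 22 endothelial markers 17 rose and the others did not pass, with sums of 903 to 1121 CPM in vector sham and 1377 to 1582 CPM in PRODH TAC. Cdh5, the cadherin of endothelial junctions, was at 69 to 82.8 and 119 to 141 CPM (log2 fold change 0.81 ± 0.091, adjusted p = 5.77e-08). Of 15 mural markers 9 rose and 1 fell, with overlapping sums of 1561 to 1729.6 and 1567 to 1749 CPM: the pericyte receptor Pdgfrb rose (log2 fold change 1.01 ± 0.10, adjusted p = 4.24e-09) and the smooth muscle actin Acta2 fell (log2 fold change -0.40 ± 0.077, adjusted p = 0.000106). Of 26 myeloid markers 12 rose and 2 fell, with sums of 195 to 317 and 308 to 373 CPM. Among those that rose was the complement gene C1qb of resident macrophages (log2 fold change 0.58 ± 0.097, adjusted p = 2.04e-05). In PRODH sham the endothelial, mural and myeloid sums were 1069 to 1168, 1491 to 1680 and 302 to 361 CPM. The myeloid sums of the PRODH groups thus overlapped. In vector TAC the 3 lists summed to 1839 to 2108, 2198 to 2543 and 598 to 649 CPM. Lymphoid markers were near 0, with 1 of 14 passing the filter and sums of at most 2.85 CPM in vector sham and PRODH TAC. Red cell and platelet markers summed to 112 to 189 and 111 to 128.0 CPM, and glial and mesothelial markers to 11.6 to 15.3 and 11.6 to 15.9 CPM. Of 9 glial and mesothelial markers tested, 1 was called at least 2-fold higher (5.01% of all genes were). In both lists 1 marker was called lower (6 red cell and platelet markers were tested). The call was lost without any of 10 libraries for red cells (vector sham 2, 3 and 4, PRODH sham 1, 2 and 3, PRODH TAC 1, 2, 3 and 4; 2 were lower without vector sham 1). It was lost without any of 5 for glia and mesothelium (vector sham 2 and 4, PRODH TAC 1, 3 and 4).

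The 2 myeloid markers that fell are neutrophil proteins, S100a9 and S100a8. S100a9 was at 1.35, 2.33, 2.41 and 1.64 CPM in vector sham and 0.362, 0.248, 0.203 and 0.315 CPM in PRODH TAC (log2 fold change -2.76 ± 0.32, adjusted p = 5.77e-08), with 0.0657 to 0.516 CPM in PRODH sham and 1.15 to 1.56 CPM in vector TAC. S100a8 was at 0.582 to 1.57 and 0.122 to 0.289 CPM (log2 fold change -2.14 ± 0.42, adjusted p = 0.000163). Both genes were low in the 2 PRODH groups and higher in the 2 vector groups. The interleukin Il1b had the same pattern, at 1.64 to 2.38 CPM in vector sham, 0.525 to 0.934 in PRODH sham, 1.41 to 2.13 in vector TAC and 0.472 to 0.804 in PRODH TAC (log2 fold change -1.62 ± 0.24, adjusted p = 4.18e-06). Of 25 tested inflammatory mediators 7 were higher and 5 lower, shares near those of all genes (22.0% and 21.2%), with a median of -0.025 that became 0.38 when scaled by library size alone.

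Adult contractile genes were mostly at or below baseline. Of 24 adult sarcomere genes 14 were lower and 2 higher, with a median of -0.26 that turned to 0.14 (10 higher, 2 lower) when scaled by library size alone. Cardiac troponin I, Tnni3, was at 3169, 3498, 3192 and 3124 CPM in vector sham and 1819.5, 1715, 1951 and 2059 CPM in PRODH TAC (log2 fold change -0.78 ± 0.087, adjusted p = 3.19e-08). Its level in vector TAC was 1738 to 2064 CPM, the same range as PRODH TAC. The ventricular light chain Myl2 (-0.62 ± 0.090) and troponin T, Tnnt2 (-0.53 ± 0.080), also fell, the latter with an adjusted p of 5.13e-06 that became 0.181 when scaled by library size alone. The adult myosin Myh6 did not pass the test, at 6632 to 8075 CPM in vector sham and 6411 to 7156 CPM in PRODH TAC (log2 fold change -0.11 ± 0.079, adjusted p = 0.259), whereas vector TAC held 4086 to 5184 CPM. With the length term its log2 fold change was -0.32 (adjusted p = 0.000749), and with library size alone 0.28 (adjusted p = 0.00247). The 2 higher genes were the M-band protein Myom2 (0.58 ± 0.065) and titin, Ttn (0.27 ± 0.082). The titin gene is among the longest, and its log2 fold change turned to -0.20 (adjusted p = 0.0222) with the length term.

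In calcium handling and ion channels, 12 of 28 genes were lower and 2 higher, against 21.2% and 22.0% of all genes. The median was -0.17 (13 higher and 1 lower, median 0.23, by library size alone, and 1 higher and 17 lower, median -0.32, with the length term). Atp2a2, the calcium pump of the sarcoplasmic reticulum, was at 8258, 7653, 7233 and 7522 CPM in vector sham and 5269, 5069, 5375 and 5475 CPM in PRODH TAC (log2 fold change -0.53 ± 0.069, adjusted p = 3.89e-07). Vector TAC held 3271 to 3528 CPM, so PRODH TAC lay between the 2 vector groups without overlap. By library size alone the fall was not called (-0.53 became -0.13, adjusted p = 0.108). Hrc, a calcium buffer of the same store, fell (log2 fold change -0.61 ± 0.078, adjusted p = 3.16e-07), as did the potassium channel genes Kcnd2 (log2 fold change -0.49 ± 0.098, adjusted p = 0.00021) and Kcnv2 (log2 fold change -0.49 ± 0.13, adjusted p = 0.00337), with overlapping libraries for Kcnv2 at 6.04 to 8.68 and 4.31 to 6.24 CPM. Scaled by library size alone, the calls of Kcnd2 and Kcnv2 were lost (adjusted p = 0.507 and 0.606). The 2 higher genes were Kcna5 (log2 fold change 0.32 ± 0.092, adjusted p = 0.00584) and Cacna1c (log2 fold change 0.22 ± 0.072, adjusted p = 0.0147). The Cacna1c call was lost without PRODH TAC library 3 (adjusted p = 0.0651), and its value was -0.0018 with the length term.

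Under TMM scaling, genes of mitochondrial energy metabolism were lower almost throughout. Beside this, the mitochondrial genome with its nuclear copies took 58.5% to 62.9% of counts in vector sham and 54.7% to 55.7% in PRODH TAC. With TMM without these genes and copies, 31 of 36 genes of fatty acid uptake and oxidation were lower (median -0.48). So were 22 of 27 of the citric acid cycle and pyruvate entry (-0.35) and 44 of 45 of the nuclear respiratory chain (-0.55). The cause of these falls was not tested. In fatty acid uptake and oxidation 31 of 36 were lower and the others did not pass, with a median of -0.49 (11 lower and 4 higher, median -0.096, by library size alone). Without PRODH TAC library 4, 1 member was called higher. Ucp3, an uncoupling protein of muscle mitochondria, was at 37.4, 32.6, 30.8 and 31.2 CPM in vector sham, 14.6, 13.8, 14.8 and 14 CPM in PRODH TAC and 6.13, 6.97, 6.71 and 7.21 CPM in vector TAC (log2 fold change -1.20 ± 0.081, adjusted p = 6.17e-13). The 3 groups did not overlap. The thioesterase Acot1 also fell and was at 7.91 to 9.34 CPM in vector sham and 3.31 to 3.98 CPM in PRODH TAC (log2 fold change -1.27 ± 0.12, adjusted p = 6.71e-10). Mlycd, which removes the malonyl-CoA that blocks fatty acid entry, was at 61.1 to 68.1 and 33.5 to 39.6 CPM (log2 fold change -0.86 ± 0.070, adjusted p = 6.34e-11), and at 32 to 36.6 CPM in vector TAC, overlapping PRODH TAC. Plin5 (-0.80 ± 0.070), a lipid droplet protein, and Pdk4 (-0.80 ± 0.081), a kinase that inhibits pyruvate dehydrogenase, fell too. Cpt1b, the carnitine transferase of heart muscle, fell less (log2 fold change -0.26 ± 0.069, adjusted p = 0.00333), and its direction turned by library size alone (0.14, adjusted p = 0.0943).

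The citric acid cycle and pyruvate entry gave 22 of 27 genes lower, with a median of -0.37 (0.025 by library size alone). Suclg1, a subunit of succinyl-CoA ligase, was at 302, 315, 285 and 274 CPM in vector sham and 191, 167, 182 and 188 CPM in PRODH TAC (log2 fold change -0.69 ± 0.071, adjusted p = 6.72e-09). The pyruvate carrier subunit Mpc2 was at 258 to 291 and 155 to 176 CPM (log2 fold change -0.74 ± 0.078, adjusted p = 1.17e-08). Branched-chain amino acid breakdown gave 20 of 23 lower, with a median of -0.31 (0.086 by library size alone), led by the dehydrogenase subunit Bckdhb (log2 fold change -0.71 ± 0.087, adjusted p = 2e-07). For each of these 3 genes the groups did not overlap.

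Nuclear genes of the respiratory chain showed the highest share of lower members among the lists: 44 of 45 were lower, with a median of -0.57. The median was -0.61 in vector TAC against vector sham. Library size alone gave -0.17, with 23 lower and 2 higher. These gene models are short, with a median of 861 bases, and with the length term 35 of 45 were lower, with a median of -0.36. Cox5a, a subunit of cytochrome oxidase, was at 474, 568, 517 and 519 CPM in vector sham and 257, 247, 289.9 and 295 CPM in PRODH TAC (log2 fold change -0.93 ± 0.093, adjusted p = 8.32e-09). Cox7a1, the muscle form of another subunit, was at 374 to 486 and 215 to 264 CPM (log2 fold change -0.87 ± 0.090, adjusted p = 1.28e-08), and Uqcrfs1, the Rieske iron-sulphur protein, at 671 to 769 and 398 to 454 CPM (log2 fold change -0.73 ± 0.075, adjusted p = 5.99e-09). The member that missed the threshold was Ndufs1 (log2 fold change -0.22 ± 0.098, adjusted p = 0.0782), which did pass without vector TAC library 2 (adjusted p = 0.0336) or 4 (adjusted p = 0.0473).

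Protein genes of the mitochondrial genome were lower in 12 of 13 cases, with a median of -0.61 (-0.21 by library size alone). mt-Nd2, a subunit of complex I, was at 30520.0, 28264, 31629 and 31088 CPM in vector sham and 18423, 16769, 20097 and 19628 CPM in PRODH TAC (log2 fold change -0.70 ± 0.080, adjusted p = 5e-08). mt-Co2 gave the largest fall (log2 fold change -1.74 ± 0.28, adjusted p = 0.000287), but its vector sham libraries were far apart, at 7464, 10308, 4132 and 3909 CPM. mt-Atp8 did not pass (log2 fold change 0.074 ± 0.15, adjusted p = 0.728), and its sign turned without vector sham library 2 (-0.054). Nuclear copies of these genes share their reads, so single values are uncertain.

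The regulator Ppargc1a, a coactivator of mitochondrial genes, stood at 56.6, 40.9, 51.6 and 58.5 CPM in vector sham and 54.1, 49.1, 54.1 and 48.7 CPM in PRODH TAC (log2 fold change -0.0100 ± 0.11, adjusted p = 0.951). The groups overlapped, and vector TAC was lower at 28.8 to 37.1 CPM. With the length term the value was -0.22 (adjusted p = 0.0489), and with library size alone 0.39 (adjusted p = 0.0140). Glycolysis and glucose entry gave 16 of 24 genes lower and 2 higher, with a median of -0.27 (8 higher and 1 lower, median 0.13, by library size alone). Ldhb, the heart form of lactate dehydrogenase, was at 847 to 964 and 512 to 599 CPM (log2 fold change -0.66 ± 0.071, adjusted p = 1.8e-08). The 2 higher genes, Pfkfb2 (log2 fold change 0.82 ± 0.17, adjusted p = 0.00119) and Pfkfb3 (log2 fold change 0.51 ± 0.13, adjusted p = 0.00164), encode enzymes that make the sugar phosphate activating phosphofructokinase.

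Genes of proline metabolism moved by little. Of 11 tested, Prodh included, 2 were higher (Prodh and Slc36a1) and 5 lower, against 22.0% and 21.2% of all genes. The median was -0.14 (6 higher, median 0.26, by library size alone, and 2 higher and 3 lower, median -0.052, with the length term). Aldh4a1, the enzyme after PRODH, was at 56.1, 68.3, 58.7 and 52.9 CPM in vector sham and 45.4, 45.1, 49.8 and 47.8 CPM in PRODH TAC (log2 fold change -0.33 ± 0.075, adjusted p = 0.000847). Its PRODH sham libraries held 58.6 to 64.1 CPM and its vector TAC libraries 30.9 to 35.9 CPM, so PRODH TAC lay between vector sham and vector TAC. By library size alone the value was 0.069 (adjusted p = 0.518).

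Among proline synthesis genes, Pycr1 was near the limit of detection, at 0.362 to 0.761 and 0.496 to 0.772 CPM, and did not pass (log2 fold change 0.33 ± 0.32, adjusted p = 0.423). Pycrl, which encodes a pyrroline carboxylate reductase, was lower (log2 fold change -0.41 ± 0.16, adjusted p = 0.0397). Its call was lost without any of 8 libraries (adjusted p = 0.0562 to 0.152): vector sham 2, 3 and 4, PRODH sham 1, 2 and 3, and PRODH TAC 1 and 3. Without vector sham library 2 or 3 the list had 3 members lower. Oat, which joins ornithine to the proline pathway, was slightly lower (log2 fold change -0.19 ± 0.062, adjusted p = 0.0127, and 0.0999 without vector sham library 1). P4ha1, which hydroxylates proline in collagen, fell (log2 fold change -0.30 ± 0.074, adjusted p = 0.0017), and Slc36a1, a carrier of proline and other small amino acids, rose (log2 fold change 0.43 ± 0.13, adjusted p = 0.01). By library size alone Oat and P4ha1 turned to 0.21 and 0.10. In glutamate and glutamine metabolism 6 of 19 were higher and 8 lower, against 22.0% and 21.2% of all genes. The median was -0.12 (0.28 by library size alone, and 5 higher and 10 lower with the length term). Got1, the cytosolic aspartate aminotransferase, had the smallest p among those lower, at 593 to 678 and 350.1 to 398 CPM (log2 fold change -0.75 ± 0.068, adjusted p = 4.98e-10).

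Many ribosomal protein genes lay below every other library. Of 38 tested, 32 were lower than in vector sham and the others did not pass, with a median of -0.42, and for 22 of them all 4 PRODH TAC libraries lay below the other 12 (2.78% of all genes did). In vector TAC against vector sham the median was -0.012. Rpl23 was at 184, 198, 183 and 175 CPM in vector sham, 149 to 192 in PRODH sham, 161 ± 8.31 (mean ± SD, n = 4) in vector TAC and 129, 126, 136 and 134 in PRODH TAC (log2 fold change -0.50 ± 0.072, adjusted p = 2.36e-06). Rps13, outside the list and among the genes farthest below all others, was at 64, 74.1, 62.2 and 65.5 and 32.5, 32.2, 36.7 and 34.7 CPM (log2 fold change -0.97 ± 0.12, adjusted p = 3.91e-06), with overlapping ranges of 45.3 to 72.6 and 51.3 to 77.2 CPM in PRODH sham and vector TAC. These are short genes with many pseudogene copies: the list's median length was 882 bases, and with the length term 20 were lower and 3 higher, with a median of -0.17. Library size alone gave a median of -0.027, 7 higher and 4 lower, and the Rpl23 call was lost (adjusted p = 0.259). Without PRODH sham library 1 or 4, 1 member was called higher.

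Proteasome genes gave 21 of 27 lower and 1 higher, with a median of -0.29 (8 higher, median 0.11, by library size alone). Without vector sham library 2, 13 were lower, and with the length term 11. The catalytic subunit Psmb5 was at 56.2, 67.9, 56.1 and 56.8 CPM in vector sham and 37.8, 34.6, 43 and 45.5 CPM in PRODH TAC (log2 fold change -0.56 ± 0.091, adjusted p = 1.61e-05), and its fall was not called by library size alone (adjusted p = 0.107). The higher gene was Psme4, an activator cap (log2 fold change 0.25 ± 0.079, adjusted p = 0.0123, and 0.757 with the length term).

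Chaperone genes were mostly lower under TMM scaling, which library size alone turned at the level of list medians. Of 22 unfolded protein response genes 13 were lower and 2 higher, with a median of -0.23 (0.17 by library size alone). Hspa5, the main chaperone of the endoplasmic reticulum, was at 349, 321, 315 and 323 CPM in vector sham and 197, 198, 202 and 192 CPM in PRODH TAC (log2 fold change -0.73 ± 0.067, adjusted p = 6.71e-10). PRODH sham and vector TAC libraries lay at 249 to 253 and 171 to 212 CPM. The secreted factor Manf fell as well (log2 fold change -0.86 ± 0.085, adjusted p = 2.97e-09), while Edem1 (log2 fold change 0.72 ± 0.11, adjusted p = 5.42e-06) and the sensor Atf6 (log2 fold change 0.34 ± 0.070, adjusted p = 0.000311) were higher. With the length term Atf6 was not called (adjusted p = 0.197).

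Of 22 heat shock genes 12 were lower and 2 higher, with a median of -0.31 (0.093 by library size alone). Hsph1, a partner of HSP70, was at 72.7, 65.2, 64.3 and 64 CPM in vector sham, 28.9, 27.3, 27.4 and 27.4 in PRODH TAC, 37.4 to 44.3 in PRODH sham and 23.1 to 26.8 in vector TAC (log2 fold change -1.26 ± 0.075, adjusted p = 3.9e-14). Hspb1 (log2 fold change -0.71 ± 0.084, adjusted p = 7.77e-08) and Hspa8 (log2 fold change -0.48 ± 0.066, adjusted p = 1.19e-06) fell by less, the latter not called by library size alone (adjusted p = 0.293). The 2 higher genes, Hspa1a (0.32 ± 0.073) and Hspa1b (0.35 ± 0.072), encode nearly the same inducible HSP70 and may share reads.

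Immediate early genes, which respond within minutes to many stimuli including cell isolation, were lower in 13 of 26 cases and higher in 3, with a median of -0.30 (9 higher and 3 lower, median 0.10, by library size alone). Nr4a1, an orphan nuclear receptor of this class, was at 30.2, 34, 33.1 and 34.2 CPM in vector sham, 13.7 to 16.8 in PRODH sham, 30.6 to 34.6 in vector TAC and 15, 16.4, 15.5 and 14.7 in PRODH TAC (log2 fold change -1.10 ± 0.077, adjusted p = 1.41e-12). Both PRODH groups lay at about the same level and both vector groups at another. Fos was at 59.3 to 67.4 and 34.7 to 39.6 CPM (log2 fold change -0.76 ± 0.069, adjusted p = 5.57e-10). The 3 higher genes were Klf6 (log2 fold change 0.56 ± 0.083, adjusted p = 3.6e-06), Ier5 (log2 fold change 0.56 ± 0.079, adjusted p = 1.57e-06) and Egr2 (log2 fold change 0.76 ± 0.27, adjusted p = 0.0246). Egr2 was near the limit of detection, at 0.302 to 0.609 and 0.691 to 1.03 CPM, and its call was lost without vector sham library 3 (adjusted p = 0.0818) or PRODH TAC library 2 (adjusted p = 0.0785). Without vector sham library 2 or PRODH sham library 4, 5 members were higher, as with the length term.

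Antioxidant genes gave 18 of 29 lower and 3 higher, with a median of -0.31 (0.095 by library size alone). The 3 higher ones were the extracellular superoxide dismutase Sod3 (log2 fold change 0.47 ± 0.12, adjusted p = 0.00333), the haem oxygenase Hmox1 (log2 fold change 0.47 ± 0.15, adjusted p = 0.0103) and the glutathione synthesis gene Gclm (log2 fold change 0.26 ± 0.090, adjusted p = 0.0223). The Gclm call was lost without PRODH TAC library 3 (adjusted p = 0.0858). With the length term 6 were higher.

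**Figure D4:**
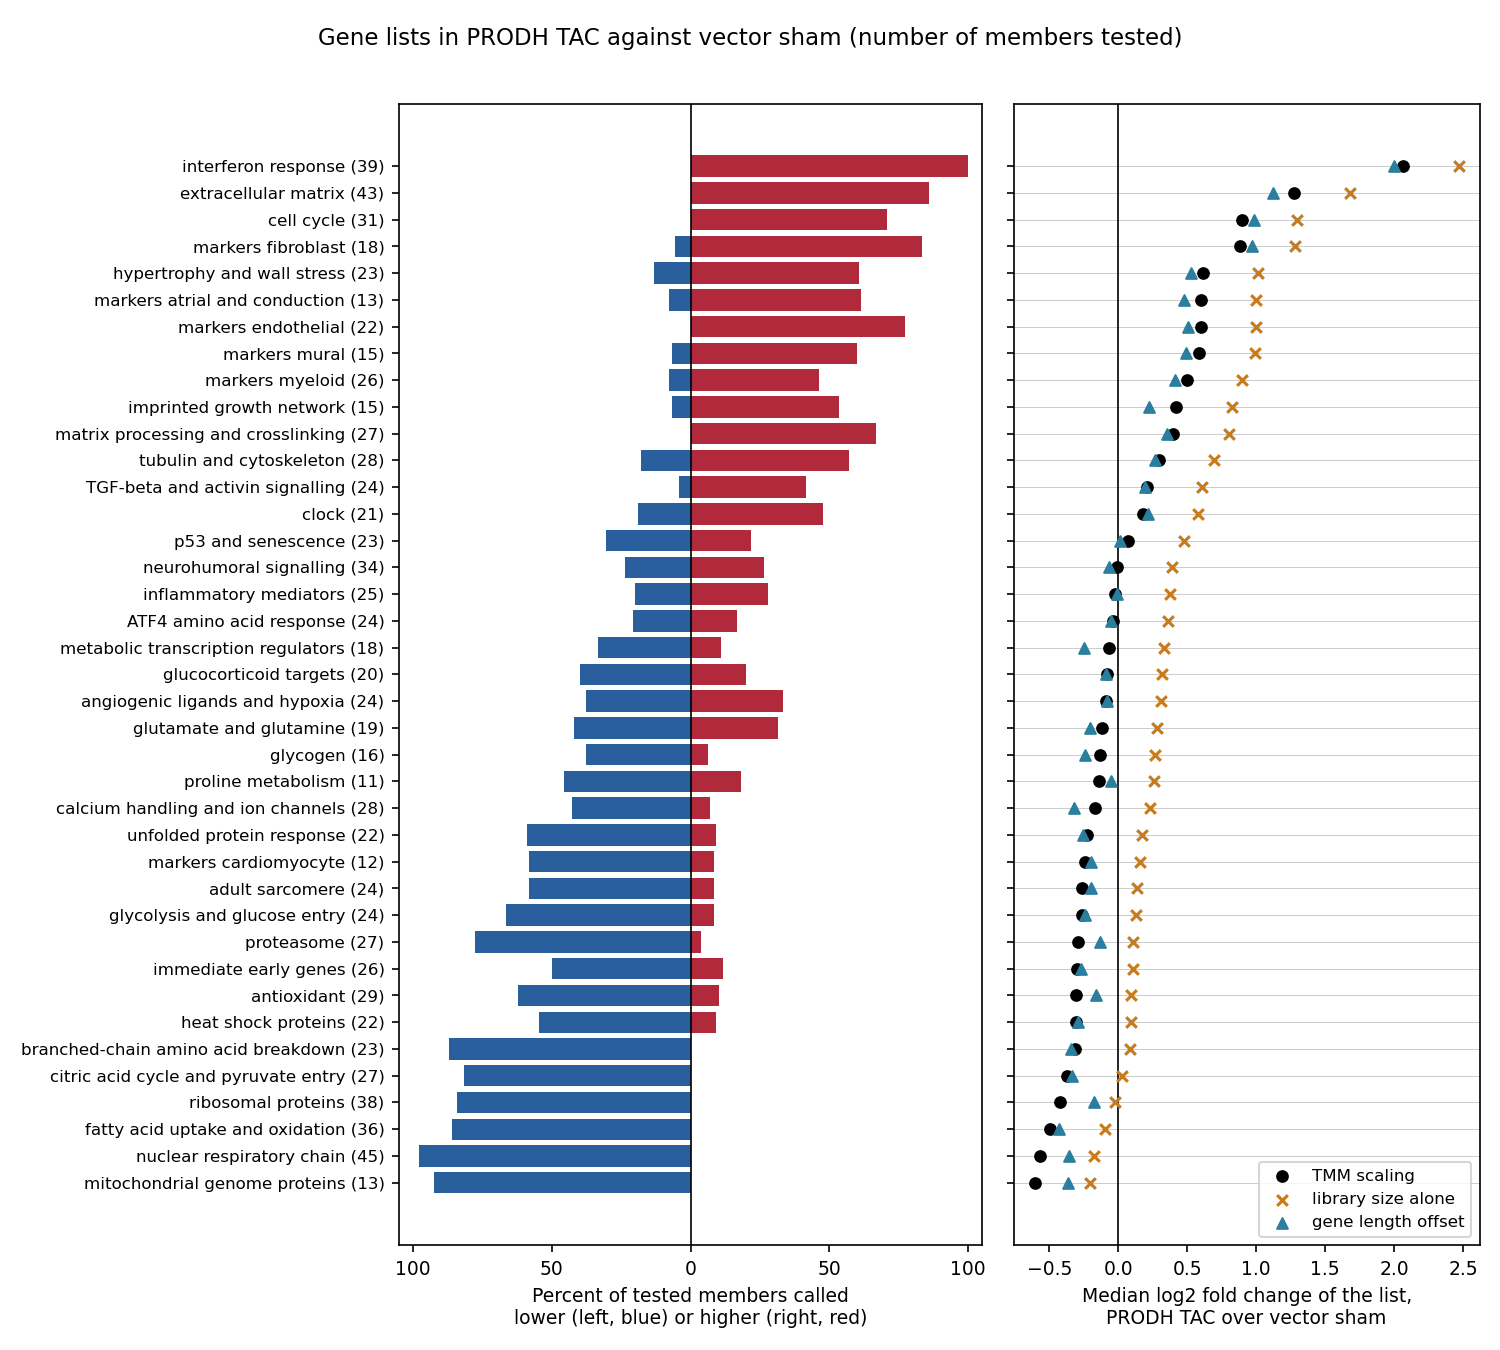
Left, percent of tested members called lower (blue) or higher (red) in PRODH TAC against vector sham for each gene list with at least 11 members tested (number in brackets). Of all genes tested, 22.0% were called higher and 21.2% lower. Right, the list's median log2 fold change under TMM scaling (dots), library size alone (crosses) and the length term (triangles). Interferon response leads at 2.07. Ribosomal, fatty acid, nuclear respiratory chain and mitochondrial genome lists stay below 0 under all 3, and the other lists with a negative median under TMM lie above 0 by library size alone.

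Of 21 clock genes 10 were higher and 4 lower, with a median of 0.18 (15 higher and 2 lower, median 0.58, by library size alone). Of all genes 22.0% were higher and 21.2% lower, so the share of lower clock genes was near that of all genes. Nr1d1, the nuclear receptor REV-ERB alpha that represses other clock genes, gave the largest fall among named genes of at least 5 CPM. It was at 25, 30.7, 29.8 and 28.6 CPM in vector sham and 7.36, 8.1, 8.37 and 6.65 CPM in PRODH TAC (log2 fold change -1.91 ± 0.092 (SE), 95% interval -2.10 to -1.72, adjusted p = 3.51e-16). PRODH sham libraries held 22.1, 23.7, 23 and 23.1 CPM and vector TAC libraries 11.7, 12.2, 14.4 and 14.3 CPM, so PRODH TAC lay below all 12 others. Reads of Nr1d1 are partly shared with another gene, as its fractional counts in all 16 libraries show.

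Per3 and Tef were higher in both PRODH groups than in both vector groups. Per3 was at 3.6 to 4.5 CPM in vector sham, 8.54 to 15.1 in PRODH sham, 6.23 to 7.23 in vector TAC and 10.1 to 11.4 in PRODH TAC (log2 fold change 1.44 ± 0.13, adjusted p = 9.03e-10). Tef was at 39.98 to 46.7, 83 to 93.1, 41.5 to 50.4 and 73.4 to 83.9 CPM in the same order of groups (log2 fold change 0.85 ± 0.073, adjusted p = 1.49e-10). Cry1, a repressor of the loop, was at 2.92 to 3.5 CPM in vector sham against 4.7 to 5.67 in PRODH sham, 8.38 to 9.59 in vector TAC and 6.69 to 7.11 in PRODH TAC (log2 fold change 1.09 ± 0.11, adjusted p = 6.32e-09). Arntl, the activator BMAL1, was at 4.65 to 6.12 CPM in vector sham, 2.41 to 3.23 in PRODH TAC and 0.788 to 1.83 in PRODH sham (log2 fold change -0.93 ± 0.15, adjusted p = 1.09e-05). The other lower genes were Dbp (log2 fold change -0.38 ± 0.085, adjusted p = 0.000666) and Bhlhe40 (log2 fold change -0.26 ± 0.081, adjusted p = 0.0103). Dbp and Bhlhe40 turned to 0.021 and 0.14 by library size alone, and the Bhlhe40 call was lost without vector sham library 2 or 3 (adjusted p = 0.0589 and 0.0603) or PRODH TAC library 4 (adjusted p = 0.0565). The sources used here do not give the hour of collection.

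Cell cycle genes were higher in 22 of 31 cases, while the others did not pass, with a median of 0.90. For 5 members PRODH TAC lay above all 12 other libraries (2.44% of all genes did). Vector TAC against vector sham also had 22 of 31 higher and 1 lower, with a median of 0.78 (56.5% of all genes differed). Against vector TAC, 5 members were higher and 2 lower in PRODH TAC, with a median of 0.076. The list summed to 250 to 262 CPM in PRODH TAC and 245 to 261 CPM in vector TAC. Top2a, a topoisomerase of dividing cells, was at 2.63, 2.38, 1.93 and 2.01 CPM in vector sham and 7.2, 7.85, 6.54 and 6.3 CPM in PRODH TAC (log2 fold change 1.64 ± 0.16, adjusted p = 3.26e-09), with 0.802 to 1.81 CPM in PRODH sham and 4 to 6.18 in vector TAC. Mki67, the proliferation antigen, was at 2.29 to 2.84 and 6.01 to 9.13 CPM (log2 fold change 1.59 ± 0.17, adjusted p = 1.92e-08), with 3.41 to 5.23 CPM in vector TAC. The levels are low beside those of cardiomyocyte genes, and which cells hold these transcripts was not tested. Ptprc, the leukocyte antigen CD45, stood at 1.99 to 2.99 and 4.43 to 5.49 CPM (log2 fold change 1.00 ± 0.15, adjusted p = 3.96e-06) and the endothelial marker Cav1 at 94.7 to 124 and 183 to 209 CPM.

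Atrial and conduction genes were mostly higher: 8 of 13 rose and 1 fell, with a median of 0.60, and without vector sham library 2 a second member was lower. The atrial light chain Myl4 was at 22.8, 24.9, 26.6 and 21.2 CPM in vector sham and 48.8, 44, 41.4 and 46.8 CPM in PRODH TAC (log2 fold change 0.92 ± 0.086, adjusted p = 8.17e-10). Myl7 (log2 fold change 0.68 ± 0.098, adjusted p = 2.58e-06) and the calcium pump regulator Sln (log2 fold change 0.89 ± 0.12, adjusted p = 1.43e-06) moved alike, and for all 3 genes PRODH TAC lay above the other 12 libraries. The exception was Bmp10, a growth factor of atrial muscle, at 5.55, 5.07, 5.25 and 4.39 CPM in vector sham and 0.0402, 0.248, 0.122 and 0.276 CPM in PRODH TAC (log2 fold change -4.83 ± 0.29 (SE), 95% interval -5.42 to -4.24, adjusted p = 5.61e-14). PRODH sham held 0.175 to 0.394 CPM and vector TAC 0.208 to 0.488 CPM, so the vector sham libraries alone carried this transcript at more than 1 CPM. The summed level of the list was 127 to 144 CPM in vector sham, 111 to 123 in PRODH sham, 130.4 to 136 in vector TAC and 161 to 171.5 in PRODH TAC.

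Beside Nr1d1, the largest falls among named genes were in genes of varied roles. Slc41a3, a mitochondrial magnesium carrier, was at 26.8, 29.1, 30.8 and 29.1 CPM in vector sham, 11.6 to 13.2 in PRODH sham, 14 to 15.2 in vector TAC and 7.8, 8.92, 8.04 and 8.7 in PRODH TAC (log2 fold change -1.79 ± 0.080, adjusted p = 5.07e-17). PRODH TAC lay below all other libraries. Angptl4, a secreted inhibitor of lipoprotein lipase, was at 6.97 to 8.57 CPM in vector sham, 2.74 to 3.84 in PRODH sham, 5.04 to 6.47 in vector TAC and 2.27 to 3.29 in PRODH TAC (log2 fold change -1.39 ± 0.13, adjusted p = 1.12e-09), so it was low under PRODH with either surgery. Rgs2, a brake on G protein signalling, was at 24.1 to 28.6, 14.8 to 17.5, 5.45 to 8.99 and 7.93 to 10.6 CPM in the same order of groups (log2 fold change -1.46 ± 0.11, adjusted p = 1.34e-11). Lrg1 (log2 fold change -1.33 ± 0.11, adjusted p = 1.84e-10) and Rad9b (log2 fold change -1.66 ± 0.33, adjusted p = 0.00121) fell as well. Rad9b is spread widely within groups, at 15.7, 7.81, 14.9 and 16.2 CPM in vector sham and 5.79, 2.44, 4.67 and 4.21 CPM in PRODH TAC. Pnrc1, a nuclear receptor coactivator, was at 44.9 to 52.7 CPM in vector sham, 32.3 to 36.8 in PRODH sham, 40.1 to 47 in vector TAC and 21.9 to 25.4 in PRODH TAC (log2 fold change -1.06 ± 0.076, adjusted p = 2.55e-12).

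**Figure D5:**
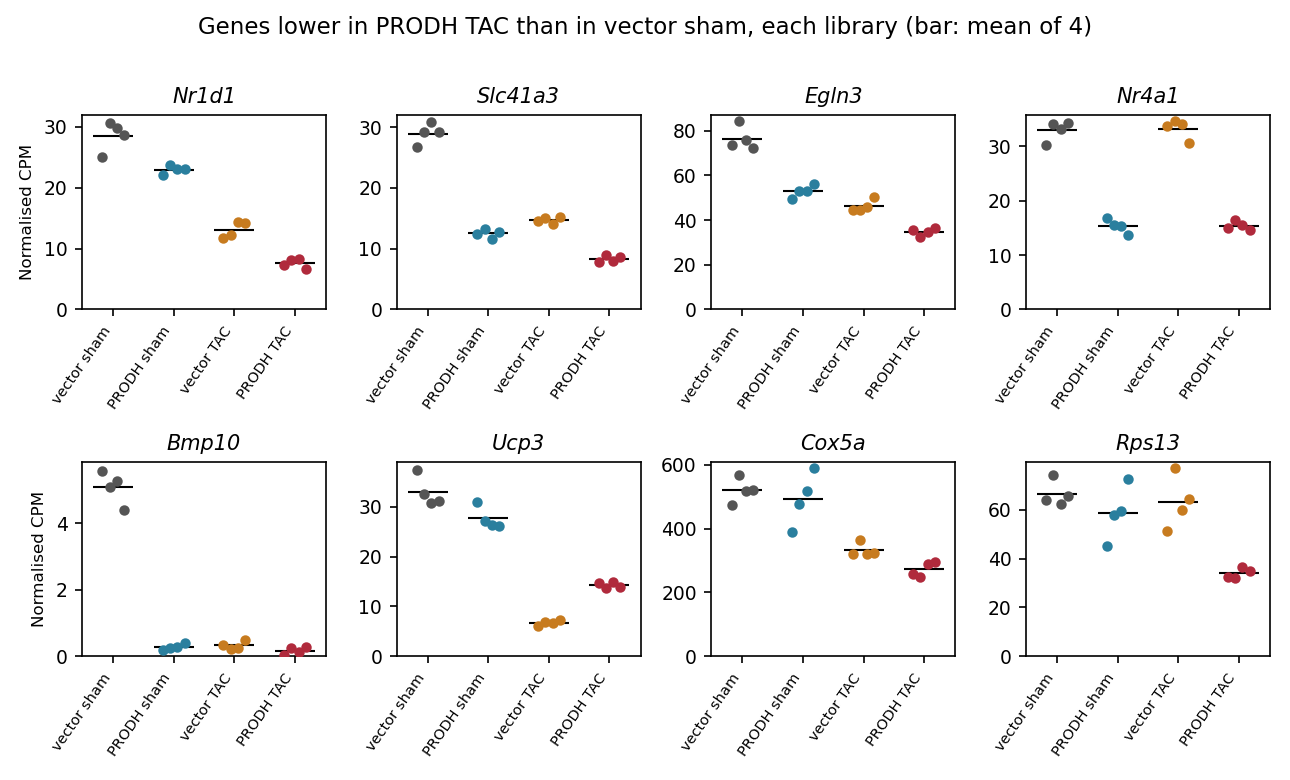
Normalised CPM (y, linear from 0) of 8 genes that were lower in PRODH TAC than in vector sham, in each library by group (x), with bars at the mean of 4. PRODH TAC lies below all other libraries for Nr1d1, Slc41a3, Egln3, Cox5a and Rps13, at the level of PRODH sham for Nr4a1, near the other 2 groups for Bmp10, and above vector TAC for Ucp3.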

How the data were processed

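RNA of isolated mouse cardiomyocytes was measured by RNA-seq in 16 libraries, 4 per group, made with a SMARTer mRNA kit from DNase-treated total RNA, per the labels' protocols. The authors deposited estimated counts per gene, not normalized, for 57010 gene models, of which 9538 hold fractional values, so reads matching several genes were divided. The sources used here do not give the aligner, counter, build or annotation. Other deposited values, a signal column per group equal to the authors' mean of its 4 libraries, were not used.

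The expected counts were rounded to whole numbers, and genes were kept by filterByExpr (at least 10 counts, total at least 15). Libraries were scaled by TMM, and 1 model of the 4 groups was fitted over all 16 libraries with edgeR 4.0.16's robust quasi-likelihood test (limma 3.58.1, R 4.3.3), without a block. P-values were adjusted by Benjamini-Hochberg over all genes tested, with a threshold of 0.05. Standard errors are the fold change over the square root of F, with 95% intervals, and the prior count was 0.125. The code was checked on simulated data. Promoters are those of RefSeq for GRCm38.p6, used for sequence only.

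The comparison and its 42 gene lists were chosen with earlier results of these data known. Named genes are fixed landmarks, at most 4 members of each list, by smallest p (of which the text names a part), the 10 largest rises and falls among called genes (standard symbol, at least 5 CPM, no overlap), and the 6 highest and lowest outside the other 12 libraries. Members named because a small group of calls went against their list were chosen after their values were seen. Some genes that this rule names are not reported here. The alternatives were DESeq2 1.42.0 (Wald test, and its size factors in edgeR), library size alone, TMM without mitochondrial genes and their 16 nuclear copies, no filter, the 8 libraries alone, a replicate block, each library left out, and a smooth offset in gene length.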

Additional observations from a re-analysis of the deposited data

Results flagged for a closer look

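In 10 of 276 tested groups of 4 libraries, 1 library stood apart from the other 3 by a gap that, over the range, passed Dixon's 95% critical value. Chance puts about 1 group in 20 past this value.

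Of the vector sham libraries, library 2 held 7.81 CPM of Rad9b (the others 14.9 to 16.2), 7390 CPM of Myl2 (the others 6330 to 6450) and 67.9 CPM of Psmb5 (the others 56.1 to 56.8). Library 3 held 7.91 CPM of Acot1 (9.11 to 9.34), 6.76 CPM of Npr1 (6.04 to 6.14) and 31.2 CPM of Klf6 (24.5 to 25.3). Library 1 held 72.7 CPM of Hsph1 (64.0 to 65.2).

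Of the PRODH TAC libraries, library 1 held 28.9 CPM of Hsph1 (27.3 to 27.4), library 3 held 4.43 CPM of Ptprc (5.35 to 5.49) and library 4 held 43.7 CPM of Pfkfb2 (55.5 to 57). Rad9b, Myl2, Psmb5, Acot1, Hsph1, Npr1, Klf6, Ptprc and Pfkfb2 were each called with every library left out in turn.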

How the results depend on the processing

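The counts of genes called kept within 1.5 times the main values under DESeq2 (5791 called, 2884 higher and 2907 lower), its size factors, TMM without mitochondrial genes and the 8 libraries alone. With library size alone, 8155 were higher and 410 lower, 1812 and 41 of them past 2-fold, and 3502 of 6075 calls kept their direction while 134 turned. With no filter on low counts, 213 were at least 2-fold lower. Leaving out each library in turn gave 5071 to 6278 called, 2577 to 3429 higher, 2224 to 3099 lower, and 618 to 823 and 120 to 187 past 2-fold.

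Library size alone reversed Aldh4a1 (0.069), Myh6 (0.28), Cpt1b (0.14), Ppargc1a (0.39), H19 (0.23), P4ha1 (0.10), Dbp (0.021), Bhlhe40 (0.14), Oat (0.21) and Ndufs1 (0.18). By its construction it shifts all genes by the same amount per library. Ppargc1a, close to 0, also turned to 0.0086 under TMM without mitochondrial genes and to 0.013 to 0.081 without 1 library, and mt-Atp8 to -0.054; leaving out each library gave -0.078 to 0.081 for Ppargc1a and -0.054 to 0.24 for mt-Atp8. The length term turned Ttn to -0.20 and Cacna1c to -0.0018. The cause was not tested. Protein genes of the mitochondrial genome give no value under TMM without them.

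With a replicate block, 6053 genes were called (3072 higher and 2981 lower). The deviations of same-numbered vector sham and PRODH TAC libraries had correlations of 0.086, -0.089, -0.13 and -0.075, so the numbers were not read as pairs. With totals of 15987580 counts or more, genes below about 1 CPM, such as Pycr1, rest on few reads.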

Other observations

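Among 24 genes of oxygen sensing and vessel growth, 8 were higher and 9 lower, against 22.0% and 21.2% of all genes. Their median was -0.088 (0.31 by library size alone). Egln3, a prolyl hydroxylase that marks hypoxia-inducible factors for breakdown, was at 73.6, 84.3, 75.9 and 72.1 CPM in vector sham and 35.6, 32.6, 34.7 and 36.3 CPM in PRODH TAC (log2 fold change -1.14 ± 0.070, adjusted p = 1e-13). PRODH sham held 49.4 to 56.1 CPM and vector TAC 44.4 to 50.3 CPM, so PRODH TAC lay below all others. Its relative Egln1 (log2 fold change -0.61 ± 0.061, adjusted p = 3.61e-09) and Bnip3, a hypoxia-induced mitophagy receptor (log2 fold change -0.66 ± 0.067, adjusted p = 4.18e-09), fell as well. In neurohumoral signalling 9 of 34 were higher and 8 lower, shares near those of all genes (22.0% and 21.2%), with a median of -0.011 (0.39 by library size alone, and 7 higher and 12 lower with the length term). Ace, the angiotensin-converting enzyme, was at 8.68, 11.8, 13.5 and 9.58 CPM in vector sham, 33.6, 35.6, 31.5 and 30.7 CPM in PRODH TAC and 73.7 to 112 CPM in vector TAC (log2 fold change 1.59 ± 0.14, adjusted p = 8.06e-08). Npr1, the receptor of the natriuretic peptides, was at 6.04 to 6.76 and 12 to 13 CPM (log2 fold change 1.00 ± 0.11, adjusted p = 3.98e-08).

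Tubulin and cytoskeletal genes gave 16 of 28 higher and 5 lower, against 22.0% and 21.2% of all genes, with a median of 0.30. Vimentin, Vim, abundant in fibroblasts and endothelium, was at 55.9 to 79.5 and 117 to 131 CPM (log2 fold change 0.91 ± 0.083, adjusted p = 5.79e-10), while Tubb4b was at 117 to 135 and 63.1 to 74.7 CPM (log2 fold change -0.88 ± 0.075, adjusted p = 1.73e-10). In TGF-beta and activin signalling 10 of 24 were higher and 1 lower (2 without vector TAC library 2), with a median of 0.21. Fstl1, a secreted follistatin relative, rose (log2 fold change 1.29 ± 0.095, adjusted p = 8.1e-12), as did Ltbp4, which stores latent TGF-beta in matrix (log2 fold change 1.12 ± 0.11, adjusted p = 5.82e-08). Fibroblast markers, whose sums were 317 to 489.8 CPM in vector sham and 581 to 735 CPM in PRODH TAC, rose beside these lists, and their part was not tested. Among 23 tested p53 and senescence genes, 5 were higher and 7 lower, against 22.0% and 21.2% of all genes. Their median was 0.074 (0.48 by library size alone). Cdkn1a, the p53 target p21, was at 28.2, 34, 32.2 and 31.5 CPM in vector sham, 10.4 to 14.5 in PRODH sham, 55.8 to 65.1 in vector TAC and 21.5, 21.2, 20.9 and 18.5 in PRODH TAC (log2 fold change -0.62 ± 0.085, adjusted p = 1.2e-06), so the vector TAC libraries were the highest and both PRODH groups lay below vector sham. Of 15 imprinted growth genes 8 were higher and 1 lower (none lower without vector sham library 2), with a median of 0.42 (6 higher and 2 lower with the length term). Mest rose (log2 fold change 1.27 ± 0.15, adjusted p = 1.5e-07), and H19, an imprinted long noncoding RNA, did not pass, at 7.9 to 11.8 and 7.07 to 10.04 CPM (log2 fold change -0.17 ± 0.12, adjusted p = 0.261, and 0.23 by library size alone).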
